A study of Mus musculus with 78 samples.

Results

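Robo4, Slit2, Slit3, Unc5b, Sema3f, Sema3g, Sema7a, Efnb2, Ephb4 and Epha2 are 10 genes of axon guidance families, and their transcripts were followed in the carotid endothelium of mice after one carotid had been partially ligated. The genes were taken from a list of symbols, and each was read from the probe set annotated to that symbol alone that had the highest mean over all 78 arrays. No probe set carried the single symbol Slit3, so 9 of the 10 genes were measured, and all 9 passed the filter on dim genes, out of 11344 tested genes and 17097 genes with a named probe set. Surgery left every mouse with a partly closed left common carotid artery (LCA) and an unoperated right common carotid artery (RCA) that served as its control. Mice received vehicle or atorvastatin, a statin that lowers cholesterol, at 10 mg/kg/day from 2 days before surgery. The pair of arteries was collected after 12 h, 24 h, 48 h or 2 weeks from 5 mice per treatment and time, except 4 under atorvastatin at 48 h. Mice 1 to 5 of each time received vehicle and mice 6 to 10 atorvastatin, and the mice of different times are different animals. The sources used here do not give strain, genotype, diet, sex or age. RNA was flushed from the inside of the vessel, so the samples are enriched for endothelium and are not pure endothelial cells.

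Axon guidance proteins steer growing nerve fibres, and endothelial cells use the same families to guide sprouts, to keep cells together and to tell arteries from veins. Slit proteins are secreted ligands of Robo receptors, netrins bind receptors of the Unc5 family, class 3 semaphorins signal through neuropilins and plexins, and ephrins on one cell bind Eph receptors on its neighbour. In the vessel wall, ephrin-B2 (Efnb2) marks arterial and Ephb4 venous endothelium, and Robo4 is a Robo receptor largely restricted to endothelium that can bind Unc5b.

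Values are log2 expression after robust multi-array normalization by the authors, and a difference is the LCA value minus the RCA value of the same mouse. A gene is said to rise or fall when it was higher or lower in the LCA than in the RCA, whichever artery changed over time. Differences were tested with limma over all tested genes, and a gene was called when its Benjamini-Hochberg adjusted p was under 0.05. Klf2, a transcription factor induced by laminar flow, was lower in the LCA in all 8 groups of mice, with group means from -1.34 at 2 weeks in vehicle to -3.04 at 12 h under atorvastatin. The mean of 13 endothelial markers lay between 9.14 and 10.20 on every array. Markers of other cells moved with time: 5 of 5 tested neutrophil markers were called higher in the LCA at 48 h in both treatments, and at 2 weeks 11 of 12 macrophage and 6 of 6 tested smooth muscle markers were. At 2 weeks 4 of 4 T cell markers were called higher in vehicle and 2 of 4 under atorvastatin. Of 8 fibroblast markers 3 were then called higher and 3 lower in both treatments. Of 3 tested lymphatic markers 2 were called lower in vehicle and 1 under atorvastatin. No adipocyte marker was called in any group. Of the 13 endothelial markers themselves, 2 were called higher and 6 lower at 48 h in vehicle, and 2 higher and 5 lower at 2 weeks. Under atorvastatin 3 were called higher and 8 lower at 48 h, and 2 higher and 6 lower at 2 weeks. Of all tested genes, 20.8% were called higher and 15.4% lower at 48 h in vehicle, and 15.5% and 12.3% at 2 weeks. The shares under atorvastatin were 16.6% and 15.2% at 48 h, and 14.5% and 15.4% at 2 weeks. In RNA of a mixed tissue, fewer cells of a type and less RNA per cell cannot be told apart. Extraction and array profiling were done in 4 batches that the labels do not assign to samples, so batch and group cannot be told apart.

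Few of the guidance genes were called at 12 h and more from 24 h on, and the share called over all tested genes rose as well. At 12 h none of the 9 genes was called in vehicle and 1 under atorvastatin, Sema3f, while limma called 2.39% and 1.68% of all tested genes (1.31% higher and 1.08% lower in vehicle, 0.758% and 0.926% under atorvastatin). At 12 h 3 of the 9 in vehicle and 4 under atorvastatin had an unadjusted p under 0.05, as did 13.2% and 11.5% of all genes. At 24 h, 48 h and 2 weeks these limma counts were 6, 5 and 5 in vehicle, against 27.8%, 45.3% and 37.6% of all genes. Under atorvastatin they were 5, 6 and 7, against 26.3%, 41.8% and 39%. At 24 h 3 genes were lower in the LCA in vehicle (Sema3f, Ephb4 and Epha2) and 4 under atorvastatin (Sema3f, Sema3g, Ephb4 and Unc5b), and none was higher. Of all genes, 14.3% were called in vehicle (7.19% higher, 7.09% lower) and 13.1% under atorvastatin (7.29% higher, 5.8% lower). In vehicle the LCA means at 12 h and 24 h were 6.89 and 7.19 for Ephb4 and 4.71 and 4.74 for Epha2. The RCA means at those times were 6.90 and 8.19 for Ephb4 and 5.17 and 5.47 for Epha2. At 48 h 1 gene rose (Sema7a) and 3 fell (Sema3f, Sema3g and Efnb2) in vehicle, and 2 rose (Sema7a and Epha2) and 4 fell (those 3 and Ephb4) under atorvastatin. The shares of all genes were then 36.2% in vehicle (20.8% higher, 15.4% lower) and 31.8% under atorvastatin (16.6% higher, 15.2% lower). At 2 weeks Robo4, Unc5b and Sema7a rose in both treatments, Sema3f and Ephb4 fell in both, and Sema3g fell under atorvastatin. Of all genes, 27.8% were called at 2 weeks in vehicle (15.5% higher, 12.3% lower) and 29.9% under atorvastatin (14.5% higher, 15.4% lower). The median difference of the 9 genes was -0.69 at 24 h in vehicle and -0.44 under atorvastatin, against 0.03 and 0.02 over all tested genes. At the other times the median of the 9 lay between -0.28 and -0.01, and that of all genes between -0.03 and 0.03. When each group was fitted alone, none of the 6 calls under atorvastatin at 48 h passed (adjusted p from 0.0724 for Sema3f to 0.255 for Epha2). The same fit ended the vehicle calls of Sema7a and Efnb2 at 48 h, those of Unc5b and Sema7a at 2 weeks, and the Sema3f call at 12 h under atorvastatin.

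**Figure D1:**
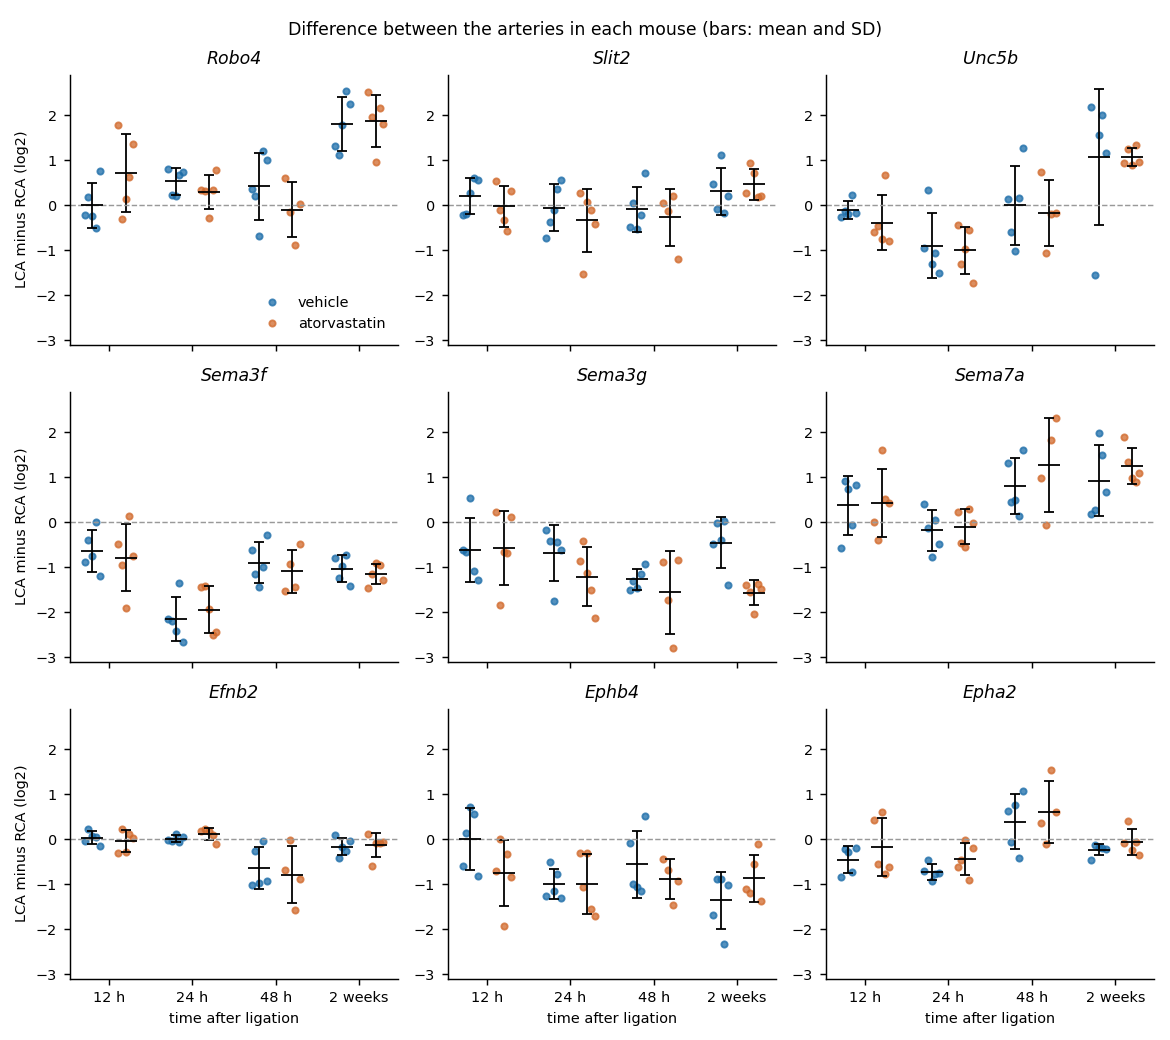
LCA minus RCA in log2 units (vertical) against time after ligation (horizontal) for the 9 measured genes, 1 point per mouse, vehicle in blue and atorvastatin in orange, with the group mean and SD in black (n = 5, or 4 under atorvastatin at 48 h). Sema3f lay lowest at 24 h, Efnb2 was below 0 in all 9 mice at 48 h, and Robo4 was above 0 in all 10 mice at 2 weeks.

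The promoters of Robo4, Efnb2 and Epha2 are shown. Robo4 was chosen because it had the largest rise at 2 weeks among the 9 genes in both treatments. Efnb2 and Epha2 were chosen because their differences had a Pearson correlation of -0.87 over the 39 mice, although not every mouse had them in opposite directions. The promoters come from RefSeq (GRCm38.p6), which gave a promoter for 9 of the 10 genes, Slit3 among them. It gave none for Sema3f, whose promoter was not searched. The printed stretches run 5′ to 3′ from 250 bases before the transcription start to 30 bases after it, Robo4 at chr9:37401722-37402001, plus strand, Efnb2 at chr8:8661213-8661492, minus strand and Epha2 at chr4:141300971-141301250, plus strand. Capitals mark CACCC on either strand (CACCC or GGGTG), the core of the motif of Krüppel-like factors such as Klf2.
Robo4: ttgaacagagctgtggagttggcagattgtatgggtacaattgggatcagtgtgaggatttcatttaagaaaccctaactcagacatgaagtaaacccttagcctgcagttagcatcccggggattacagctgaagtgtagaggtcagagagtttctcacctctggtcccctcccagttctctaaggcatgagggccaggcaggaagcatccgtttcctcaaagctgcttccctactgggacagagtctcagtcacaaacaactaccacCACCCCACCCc
Efnb2: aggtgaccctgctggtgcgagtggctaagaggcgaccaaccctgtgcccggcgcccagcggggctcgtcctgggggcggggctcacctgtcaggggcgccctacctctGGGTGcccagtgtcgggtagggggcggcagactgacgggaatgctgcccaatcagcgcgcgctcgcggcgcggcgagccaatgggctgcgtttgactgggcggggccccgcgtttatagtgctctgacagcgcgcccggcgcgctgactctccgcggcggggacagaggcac
Epha2: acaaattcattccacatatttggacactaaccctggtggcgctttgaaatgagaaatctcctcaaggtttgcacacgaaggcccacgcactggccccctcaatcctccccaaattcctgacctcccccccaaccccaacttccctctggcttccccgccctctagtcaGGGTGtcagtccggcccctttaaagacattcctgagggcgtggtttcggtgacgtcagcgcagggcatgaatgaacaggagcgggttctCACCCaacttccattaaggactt
In windows of 250 bases before and 50 after the start, searched on both strands, Robo4 held CACCC in 2 places, beginning 19 and 24 bases after the first transcribed base, Epha2 in 2 (at -82 and 7, counted from 0 at that base) and Efnb2 in 1 (at -142). Ephb4 and Slit3 also held 2, Sema7a and Sema3g held 1, and Slit2 and Unc5b held none. The motif is common, being present in 57.5% of 32851 promoters of that length. TGGGAA, the core read by the Notch partner RBPJ, was found in the Sema3g window alone among the 9 promoters searched and in 25.6% of all promoters, and it overlapped no CACCC match. TGANTCA (AP-1, 7.81% of promoters) and CCGGAAG (ETS factors, 8.86%) were found in none of the 9 promoters searched.

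Robo4 rose in the ligated artery at 2 weeks. Its gene lies on chromosome 9 (37401902 to 37414023, GRCm38.p6), and the transcription start of the promoter printed above lies downstream of that gene start. In vehicle-treated mice 1 to 5 at 2 weeks the LCA values were 5.79, 5.30, 5.40, 6.0 and 5.96 and the RCA values 4.49, 4.19, 3.62, 3.47 and 3.70. Under atorvastatin, mice 6 to 10 had 6.38, 6.19, 5.45, 6.12 and 5.77 in the LCA and 3.88, 4.23, 4.50, 3.97 and 3.98 in the RCA. Every LCA value lay above every RCA value in both treatments. The mean difference was 1.79 (SE 0.26, adjusted p = 1.3e-06) in vehicle and 1.87 (SE 0.26, adjusted p = 5.19e-07) under atorvastatin. No fold is given, because all 10 RCA values lay below the lowest array median of 4.589, where the scale is compressed. The size was 1.61 to 1.97 in vehicle and 1.72 to 2.10 under atorvastatin when each mouse was left out in turn. At the earlier times the arteries overlapped. The mean differences were then -0.01 at 12 h, 0.53 at 24 h and 0.41 at 48 h in vehicle, and 0.71, 0.29 and -0.10 under atorvastatin, none of them called. The signal of this probe set is low and exceeded the array median on 35 of 78 arrays. In mouse 2 of vehicle at 2 weeks the smooth muscle markers were not higher in the LCA (mean difference -0.24, against 2.24 to 3.81 in the other 4 mice), while the macrophage markers were 3.89 higher. Robo4 was 1.11 higher in that mouse, the smallest difference of the 5, and 1.30 to 2.53 higher in the others. The part of these cells in the Robo4 values was not tested.

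Slit2, a secreted ligand of Robo1 and Robo2, was near the lower end of the measurable range. The gene lies on chromosome 5 (47981291 to 48307735). Its values ran from 3.36 to 5.04 in the RCA and from 3.27 to 5.33 in the LCA, above the array median on 6 arrays. No difference between the arteries was called in any group, and the means lay between -0.34 and 0.46. At 2 weeks under atorvastatin Slit2 was higher in the LCA of all 5 mice, by 0.27, 0.94, 0.72, 0.17 and 0.20 in mice 6 to 10, and the mean was 0.46 (SE 0.23, adjusted p = 0.128). Levels this low do not show whether Slit2 changed.

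Unc5b, a netrin receptor of arterial and sprouting endothelium on chromosome 10 (60762594 to 60831581), rose at 2 weeks in both treatments and fell at 24 h under atorvastatin. In vehicle at 2 weeks the LCA values of mice 1 to 5 were 8.71, 4.58, 7.54, 8.07 and 7.82 and the RCA values 6.54, 6.14, 5.97, 6.07 and 6.66. Mouse 2 stood apart, since its LCA was below its RCA while the other 4 LCA values were above every RCA value. Under atorvastatin the LCA values were 8.14, 7.42, 8.14, 7.73 and 8.22, all above the RCA values of 7.21, 6.17, 7.25, 6.39 and 7.25. The mean difference was 1.07 (SE 0.34, adjusted p = 0.0153) in vehicle and 1.07 (SE 0.34, adjusted p = 0.0136) under atorvastatin, 2.1-fold in both. Without mouse 2 the vehicle value was 1.72 (adjusted p = 1.39e-05). The vehicle call was lost without mouse 1, 3 or 4 (0.79, 0.94 and 0.83), and the atorvastatin call without mouse 9 (1.01, adjusted p = 0.0503). Mouse 2 is the animal whose LCA showed no rise of smooth muscle markers. The part of those cells in the Unc5b value was not tested.

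At 24 h Unc5b ran the other way. The differences of mice 1 to 5 under vehicle were -0.95, 0.33, -1.31, -1.06 and -1.52, and those of mice 6 to 10 under atorvastatin -0.45, -1.32, -0.97, -0.57 and -1.73. Only mouse 2 of vehicle was above 0, and under atorvastatin the arteries did not overlap. The means were -0.90 (SE 0.34, adjusted p = 0.067) in vehicle, not called, and -1.01 (SE 0.34, adjusted p = 0.0409) under atorvastatin. The atorvastatin call was lost without mouse 7, 8, 9 or 10 (-0.93, -1.02, -1.12 and -0.83), and vehicle gained one without mouse 2 (-1.21, adjusted p = 0.0298). The control artery also moved. In vehicle the mean Unc5b levels at 12 h and 24 h were 5.37 and 5.83 in the LCA and 5.48 and 6.74 in the RCA. Under atorvastatin they were 5.78 and 5.65 in the LCA and 6.18 and 6.66 in the RCA.

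Sema3f, a secreted semaphorin that acts through neuropilin-2 and restrains endothelial sprouting, was the gene of the set with the largest fall at 24 h. The gene is on chromosome 9 (107681499 to 107710475). In vehicle at 24 h mice 1 to 5 had LCA values of 6.0, 5.41, 5.89, 6.43 and 5.68 and RCA values of 8.17, 7.62, 8.31, 7.79 and 8.34. Mice 6 to 10 under atorvastatin had 6.69, 6.30, 6.04, 6.19 and 5.60 in the LCA and 8.13, 7.73, 7.96, 8.69 and 8.05 in the RCA. All 10 LCA values lay below all 10 RCA values. The mean difference was -2.16 (SE 0.21, adjusted p = 9.03e-09) in vehicle, 4.47-fold lower, and -1.95 (SE 0.21, adjusted p = 7.31e-08) under atorvastatin, 3.86-fold lower. The fall was smaller but present at 48 h, with -0.90 (SE 0.21, adjusted p = 0.00115) in vehicle and -1.10 (SE 0.24, adjusted p = 0.00065) under atorvastatin, and at 2 weeks, with -1.04 (SE 0.21, adjusted p = 0.000269) and -1.16 (SE 0.21, adjusted p = 5.35e-05). The arteries did not overlap at 48 h or 2 weeks in either treatment. At 12 h the mean was -0.64 (SE 0.21, adjusted p = 0.114) in vehicle, not called, and -0.79 (SE 0.21, adjusted p = 0.044) under atorvastatin. That 12 h call was lost without mouse 6, 7, 8 or 10 (-0.87, -0.75, -0.51 and -0.80). A second, dimmer probe set of Sema3f was lower in the LCA in all 8 groups, by 0.39 to 1.35 as a mean.

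The level of Sema3f in the control artery also changed over time. Its vehicle RCA mean was 6.95 ± 0.68 at 12 h, 8.05 ± 0.32 at 24 h, 7.37 ± 0.39 at 48 h and 7.30 ± 0.24 at 2 weeks (SD, n = 5 each). The LCA means were 6.31 ± 0.48, 5.88 ± 0.38, 6.47 ± 0.11 and 6.27 ± 0.18 at the same times. In limma's F test over the 4 times the RCA level changed in vehicle (adjusted p = 0.0132; 0.0913 under atorvastatin), whereas the LCA level gave an adjusted p of 0.102 and 0.681. The ratio of 3′ to 5′ Gapdh probe sets, a sign of RNA integrity given here as a log2 difference, also moved in these groups. Its mean was 4.74 in the vehicle RCA at 12 h and 4.04 at 24 h, against 4.82 and 4.97 in the LCA. Its part in the result was not tested beyond a fit that holds it constant, in which Sema3f at 24 h stayed called in both treatments and no RCA level over time did in vehicle.

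Sema3g, a secreted semaphorin of arterial endothelium that binds neuropilin-2, fell at 48 h in both treatments. The gene is on chromosome 14 (31217873 to 31230352). In vehicle at 48 h the LCA values of mice 1 to 5 were 6.37, 5.87, 6.48, 6.48 and 7.12 and the RCA values 7.87, 7.19, 7.94, 7.64 and 8.05. Under atorvastatin mice 6 to 9 had 6.87, 6.24, 5.49 and 6.97 in the LCA and 7.77, 7.96, 8.28 and 7.81 in the RCA. The arteries did not overlap, and the mean differences were -1.28 (SE 0.27, adjusted p = 0.000424) and -1.56 (SE 0.30, adjusted p = 0.000223), 2.42-fold and 2.95-fold lower. With each group fitted alone the adjusted p was 0.0108 in vehicle and 0.0776 under atorvastatin. At 2 weeks the call was made under atorvastatin alone, and the test between treatments, given with the other treatment tests, did not pass. The differences were -0.48, -0.01, -0.40, 0.01 and -1.41 in vehicle mice 1 to 5 and -1.39, -1.55, -2.04, -1.37 and -1.48 in atorvastatin mice 6 to 10. Only mouse 5 of vehicle reached the range of the atorvastatin mice. The mean was -0.46 (SE 0.27, adjusted p = 0.224) in vehicle, not called, and -1.57 (SE 0.27, adjusted p = 2.3e-05) under atorvastatin. At 24 h it was -0.69 (SE 0.27, adjusted p = 0.088) in vehicle, not called, and -1.21 (SE 0.27, adjusted p = 0.00245) under atorvastatin, lower in the LCA of all 10 mice. At 12 h no call was made (-0.62 and -0.58). The level of Sema3g in both arteries also changed over time, and was lowest at 2 weeks: 5.56 ± 0.26 in the LCA and 7.13 ± 0.44 in the RCA under atorvastatin, against 7.21 ± 0.55 and 8.42 ± 0.65 at 24 h (SD, n = 5). The F tests over time were called in both arteries and both treatments, with adjusted p from 0.000254 to 0.033.

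Sema7a, a membrane-anchored semaphorin that binds integrin beta 1 and plexin C1 and promotes leukocyte adhesion, rose at 48 h and 2 weeks. The gene is on chromosome 9 (57939596 to 57962865). In vehicle at 48 h the LCA values were 7.35, 6.53, 7.35, 6.90 and 7.58 in mice 1 to 5 and the RCA values 6.04, 6.09, 6.85, 6.76 and 5.97, higher in the LCA of every mouse although the groups overlapped. Under atorvastatin mice 6 to 9 had 7.43, 6.51, 8.27 and 7.99 in the LCA and 6.45, 6.57, 6.43 and 5.67 in the RCA, higher in all but mouse 7. The means were 0.80 (SE 0.28, adjusted p = 0.0259) and 1.27 (SE 0.32, adjusted p = 0.00245), 1.74-fold and 2.41-fold. At 2 weeks the differences were 0.18, 0.27, 1.98, 1.49 and 0.67 in vehicle and 1.89, 1.32, 0.97, 0.90 and 1.10 under atorvastatin, and in neither treatment did the arteries overlap. Their means were 0.92 (SE 0.28, adjusted p = 0.0137) and 1.24 (SE 0.28, adjusted p = 0.000865). The control artery also moved: under atorvastatin its level was 6.83 ± 0.80 at 12 h and 5.14 ± 0.28 at 2 weeks (SD, n = 5), and the F test over the 4 times was called (adjusted p = 0.000702). The LCA level at 2 weeks was 6.38 ± 0.29, itself below the 7.25 ± 0.24 of 12 h. Calls were lost in vehicle at 48 h without mouse 1 or 5 (0.67 and 0.60), in vehicle at 2 weeks without mouse 3 or 4 (0.65 and 0.78), and under atorvastatin at 48 h without mouse 9 (0.92). At 48 h Sema7a differed least in vehicle mice 4 and 2 and atorvastatin mouse 7 (0.14, 0.44 and -0.06). Macrophage markers were also lowest in these mice (0.83, 1.22 and 1.25). At 2 weeks vehicle mouse 3 had the largest Sema7a difference of its group, 1.98, and the lowest macrophage value, 2.21. The part of these cells in the Sema7a values was not tested.

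**Figure D2:**
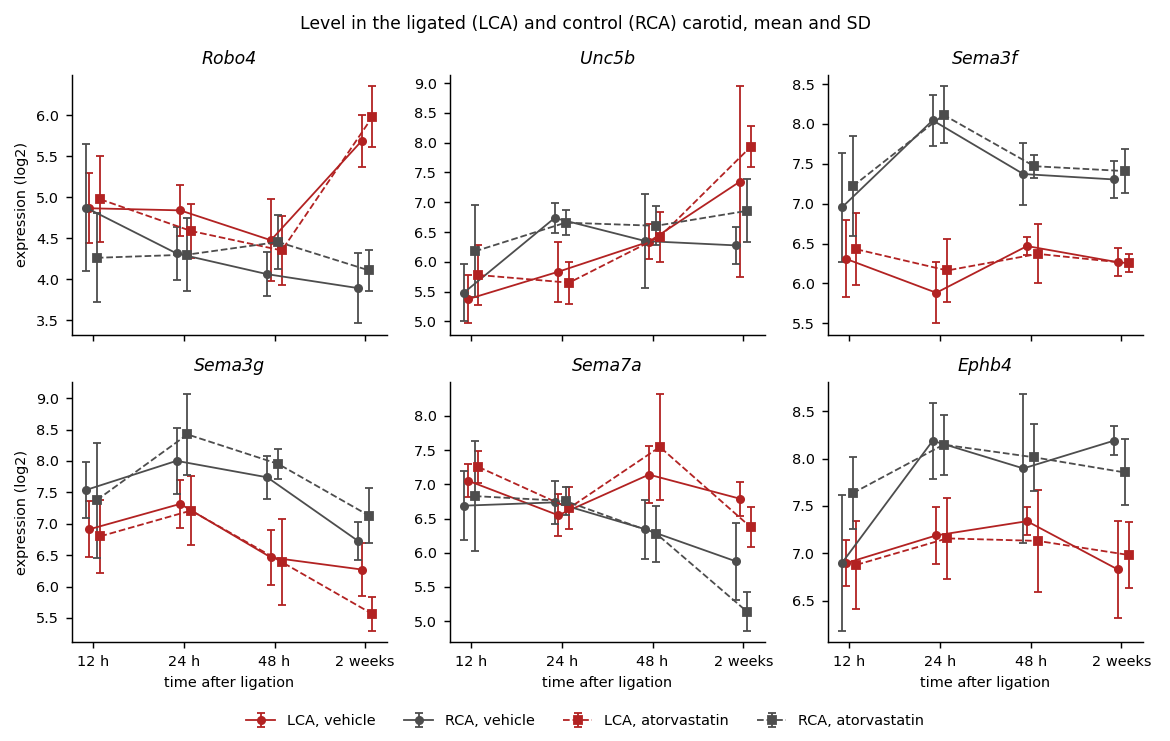
Log2 expression (vertical) against time after ligation (horizontal) for 6 genes, as group means with SD bars (n = 5, or 4 under atorvastatin at 48 h), LCA in red and RCA in grey, vehicle as circles with solid lines and atorvastatin as squares with dashed lines. The lines join different mice. Sema3f was highest in the RCA at 24 h (8.05 ± 0.32 in vehicle), the mean of Sema7a was below 6 in the RCA at 2 weeks, and Robo4 and Unc5b were highest in the LCA at 2 weeks.

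Efnb2, the arterial ephrin and ligand of Ephb4, fell at 48 h and was called at no other time. The gene is on chromosome 8 (8617235 to 8661242). In vehicle at 48 h mice 1 to 5 had LCA values of 9.78, 10.75, 9.89, 10.69 and 9.88 and RCA values of 10.81, 11.01, 10.88, 10.72 and 10.80. Under atorvastatin mice 6 to 9 had 10.00, 10.78, 9.09 and 9.94 in the LCA and 10.69, 10.80, 10.66 and 10.81 in the RCA. The LCA was near 9.8 to 9.9 in vehicle mice 1, 3 and 5 and at its lowest in atorvastatin mouse 8, whereas vehicle mice 2 and 4 and atorvastatin mouse 7 were close to the control level. The mean differences were -0.65 (SE 0.14, adjusted p = 0.000565) in vehicle and -0.79 (SE 0.16, adjusted p = 0.000298) under atorvastatin, 1.56-fold and 1.73-fold lower. All 4 probe sets of Efnb2 were lower in the LCA at 48 h in both treatments, by 0.64 to 1.43 as a mean. Away from 48 h they differed among themselves, one being higher in the LCA at 24 h by 0.34 ± 0.15 in vehicle and 0.35 ± 0.10 under atorvastatin (SD, n = 5), and the dimmest lying at -0.43 ± 0.31 at 24 h and -0.75 ± 0.48 at 2 weeks in vehicle. For the probe set used, at 12 h, 24 h and 2 weeks the means lay between -0.17 and 0.11, none called. The calls at 48 h held without each mouse in turn and were lost when each group was fitted alone (adjusted p = 0.0619 in vehicle and 0.15 under atorvastatin).

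Epha2, a receptor of ephrin-A ligands linked to endothelial inflammation and permeability, fell at 24 h in vehicle and rose at 48 h under atorvastatin. The gene is on chromosome 4 (141301221 to 141329384). At 24 h in vehicle the LCA values were 4.66, 4.82, 4.55, 4.96 and 4.73 and the RCA values 5.37, 5.28, 5.49, 5.74 and 5.48, without overlap. The mean of -0.73 (SE 0.19, adjusted p = 0.00995) was called, and under atorvastatin it was -0.44 (SE 0.19, adjusted p = 0.134). At 48 h the differences were 0.62, -0.06, 0.76, -0.43 and 1.06 in vehicle mice 1 to 5 and 0.35, -0.10, 1.53 and 0.61 in atorvastatin mice 6 to 9. The mice with Epha2 above 0 were those with low Efnb2, and vehicle mice 2 and 4 and atorvastatin mouse 7 were below 0. The means were 0.39 (SE 0.19, adjusted p = 0.114) in vehicle, not called, and 0.60 (SE 0.22, adjusted p = 0.033) under atorvastatin, called. The atorvastatin call was lost without mouse 6, 8 or 9 (0.68, 0.28 and 0.59), vehicle gained one without mouse 4 (0.59, adjusted p = 0.0195), and the 24 h vehicle call was lost without mouse 3 (adjusted p = 0.0503). At 12 h and 2 weeks Epha2 was not called, with means from -0.46 to -0.07, although in vehicle at 12 h all 5 LCA values lay below the RCA values.

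**Figure D3:**
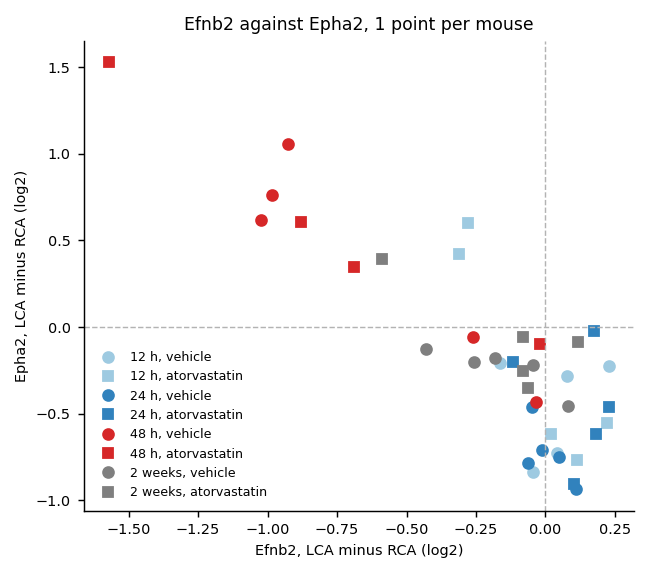
LCA minus RCA in log2 units of Epha2 (vertical) against that of Efnb2 (horizontal), 1 point per mouse (39 mice), coloured by time, with circles for vehicle and squares for atorvastatin. The 6 mice with Efnb2 below -0.6 are all from 48 h and all have Epha2 above 0, and the other 3 mice of 48 h lie among those of the other times.

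Over the 39 mice the differences of Efnb2 and Epha2 had a Pearson correlation of -0.87, and of -0.79 after each group's mean was removed. This is a description, since the mice of a group share time and treatment, and the 2 genes share the arrays. At 48 h the neutrophil markers were 4.19 to 5.19 higher in the LCA as a list mean in vehicle mice 1, 2, 3 and 5 and -0.14 in mouse 4, and 5.66, 1.30, 2.91 and 4.04 in atorvastatin mice 6 to 9. Vehicle mouse 4 and atorvastatin mouse 7, the mice with the lowest neutrophil values, had no fall of Efnb2, but vehicle mouse 2 had a neutrophil value of 4.19 with Efnb2 at -0.26. The macrophage markers at 48 h were higher by 2.55, 1.22, 2.01, 0.83 and 1.96 in vehicle mice 1 to 5. In atorvastatin mice 6 to 9 they were higher by 1.59, 1.25, 3.31 and 2.26. They were lowest in vehicle mice 2 and 4 and atorvastatin mouse 7, the mice with the smallest Efnb2 differences at 48 h. The part of these cells in the Efnb2 and Epha2 values was not tested.

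Ephb4, the venous receptor of ephrin-B2 on chromosome 5 (137350109 to 137374522), was lower in the LCA at 24 h and 2 weeks in both treatments. In vehicle at 24 h the LCA values were 7.01, 7.07, 7.57, 7.44 and 6.86 and the RCA values 8.27, 7.59, 8.72, 8.21 and 8.15. At 2 weeks they were 6.59, 7.25, 7.06, 6.04 and 7.20 and 8.28, 8.14, 7.96, 8.37 and 8.21. The arteries did not overlap at either time, and the means were -1.0 (SE 0.27, adjusted p = 0.0103) and -1.36 (SE 0.27, adjusted p = 0.000154), 2-fold and 2.57-fold lower. Under atorvastatin the differences were -0.30, -1.07, -0.31, -1.54 and -1.72 at 24 h and -1.11, -1.19, -0.55, -0.12 and -1.38 at 2 weeks, below 0 in all 10 mice. Those means were -0.99 (SE 0.27, adjusted p = 0.0112) and -0.87 (SE 0.27, adjusted p = 0.0118). At 48 h the vehicle mean was -0.56 (SE 0.27, adjusted p = 0.1), not called, with mouse 5 above 0 at 0.52, and the atorvastatin mean was -0.88 (SE 0.30, adjusted p = 0.0224). At 12 h the means were -0.0036 and -0.76, not called. With the Gapdh ratio held constant the vehicle fall at 24 h was -0.58 (adjusted p = 0.193) and that at 48 h -0.97 (adjusted p = 0.00329). Calls were also lost without mouse 5 in vehicle at 24 h (-0.93) and without mouse 9 or 10 at 24 h, 8 or 9 at 48 h, and 7 or 10 at 2 weeks under atorvastatin (-0.69 to -0.86).

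The difference was also tested between neighbouring times. Adjusted p depends on all genes of a step, so calls of different steps cannot be compared and do not place a change in time. Between 24 h and 48 h in vehicle the difference moved up for Sema3f, by 1.26, and Epha2, by 1.12, and down for Efnb2, at -0.65, so 3 of 9 genes were called against 27.8% of all genes. Under atorvastatin the same 3 genes moved by 0.85, 1.04 and -0.90, and Sema7a moved up by 1.37, 4 of 9 genes against 24.1% of all. The Sema3f step under atorvastatin had an adjusted p of 0.0485 and was lost without any of 5 mice. Between 48 h and 2 weeks Robo4 was the 1 gene called in each treatment, by 1.38 (SE 0.37, adjusted p = 0.0194) in vehicle and 1.98 (SE 0.39, adjusted p = 0.00102) under atorvastatin, against 5.76% and 8.32% of all genes. Without vehicle mouse 3 of 48 h, or 4 or 5 of 2 weeks, the vehicle step of Robo4 was not called (1.11, 1.20 and 1.27). It was not called either with the title code number as a block (1.54, adjusted p = 0.0855), and a stricter filter on dim genes left Robo4 untested. From 12 h to 24 h none of the 9 genes was called by limma in either treatment, nor was any of the 11344 genes (0% and 0%), while 2 of the 9 in vehicle and 1 under atorvastatin had an unadjusted p under 0.05, as did 10.5% and 6.66% of all genes. The largest of those steps was Sema3f, -1.52 (SE 0.30, adjusted p = 0.0708) in vehicle. Under atorvastatin the Sema3f step was -1.16 (SE 0.30, adjusted p = 0.288). In both treatments it was larger in size than the called Sema3f step from 24 h to 48 h.

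In F tests over all 4 times the difference changed in vehicle for Robo4, Unc5b, Sema3f, Efnb2, Ephb4 and Epha2, 6 of 9 against 32.9% of all genes. Under atorvastatin Sema7a took the place of Ephb4, again 6 of 9 against 33.5%. The level in the LCA alone changed in vehicle for Robo4, Unc5b and Sema3g, 3 of 9 against 49.5%, and under atorvastatin also for Sema7a, Efnb2 and Epha2, 6 of 9 against 42.5%. The level in the RCA changed in vehicle for Robo4, Unc5b, Sema3f, Sema3g, Efnb2 and Ephb4, 6 of 9 against 26.8%, and under atorvastatin for Sema3g and Sema7a, 2 of 9 against 5.88%. With the Gapdh ratio held constant none of the 9 RCA levels was called in vehicle. The ratio itself moved with time there, from a mean of 4.74 at 12 h to 3.805 at 2 weeks. Time and ratio therefore cannot be told apart in that fit. Control-artery levels of Ephb4, for example, were 6.90 ± 0.72 at 12 h and 8.19 ± 0.40 at 24 h in vehicle, and 7.64 ± 0.38 and 8.15 ± 0.32 under atorvastatin (SD, n = 5).

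Atorvastatin was not found to change any of the 9 genes. None was called between treatments in the LCA minus RCA difference at 12 h, 24 h, 48 h, 2 weeks or in the mean of the 4 times, where limma called 0.00882%, 0%, 0%, 0.0176% and 0% of all genes. At an unadjusted p under 0.05 there were 0, 0, 0, 1 and 1 of the 9, in each case Sema3g, and 4.36% and 3.72% of all genes in the last 2 tests. Atorvastatin minus vehicle for Sema3g was -1.11 at 2 weeks (95% interval -1.90 to -0.33, adjusted p = 0.841) and -0.47 in the mean of the times (-0.87 to -0.07). For the other 8 genes the interval of that mean included 0, for example -0.23 to 0.19 for Efnb2 and -0.63 to 0.35 for Unc5b, so effects within these bounds could not be seen. In the LCA alone none of the 9 was called at 12 h, 24 h, 48 h or 2 weeks, as for all genes (0%, 0%, 0% and 0%), with 1 unadjusted p under 0.05, for Sema3g at 2 weeks (-0.71), against 2.76% of all genes. In the RCA none was called either, against 0.0441%, 0%, 0% and 0.00882% of all genes. There 3 of the 9 had an unadjusted p under 0.05 at 12 h, namely Robo4 (-0.61), Unc5b (0.69) and Ephb4 (0.74), and 1 at 2 weeks, Sema7a (-0.73), against 11.2% and 5.39% of all genes.

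**Figure D4:**
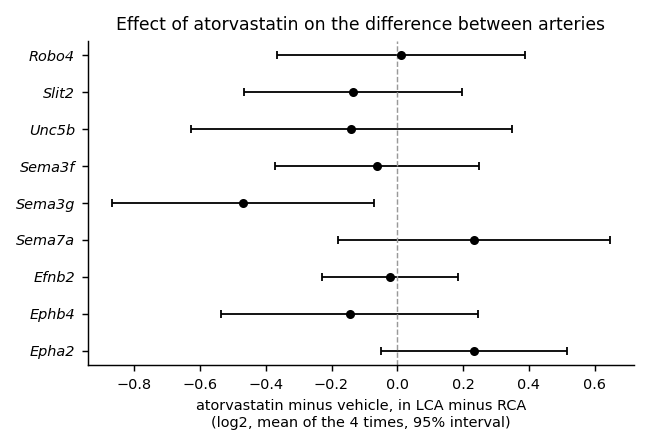
Atorvastatin minus vehicle in the LCA minus RCA difference (horizontal, log2 units, mean of the 4 times) for the 9 genes (vertical), as points with 95% intervals from the limma fit over 39 mice. The interval of Sema3g (-0.87 to -0.07) lies below 0 before adjustment over all genes, and the other 8 include 0.

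Other genes of the same families were read from 7 lists of ligands, receptors and effectors, with 89 genes in all, 85 of them on a named probe set and 55 bright enough to test. In vehicle 1 was called higher and none lower at 12 h, 2 and 5 at 24 h, 9 and 14 at 48 h, and 17 and 9 at 2 weeks. Under atorvastatin the counts were 0 and 1, 3 and 5, 9 and 10, and 14 and 8. Of all tested genes 2.39%, 14.3%, 36.2% and 27.8% were called in vehicle at these times, in either direction, and 1.68%, 13.1%, 31.8% and 29.9% under atorvastatin. The 55 related genes were thus called about as often as all genes at 24 h and more often at 2 weeks. That difference in share was not tested. The median of the 55 lay between -0.12 and 0.15 in the 8 groups. At 2 weeks 3 of 7 netrin genes and receptors were higher and 1 lower in vehicle (3 and 2 under atorvastatin), 4 of 10 neuropilins, plexins and other semaphorin receptors were higher and 1 lower in both, and 6 of 18 effectors were higher and 4 lower in both, where 15.5% and 14.5% of all genes were higher and 12.3% and 15.4% lower. Ntn1, a ligand of Unc5b, fell at 24 h, 48 h and 2 weeks, with differences of -0.81, -1.78 and -2.35 in vehicle and -0.93, -1.68 and -3.13 under atorvastatin. Unc5c, a related netrin receptor, rose at 2 weeks by 2.44 and 3.21, and Ntn4 by 1.57 and 1.93.

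Among binding partners, neuropilin-2 (Nrp2), the receptor of Sema3f and Sema3g, rose at 2 weeks in both treatments, by 1.02 (SE 0.33, adjusted p = 0.0186) in vehicle and 1.02 (SE 0.33, adjusted p = 0.0178) under atorvastatin. Its co-receptor Plxna2 fell at 2 weeks by 1.27 and 1.36. Nrp1 was called at 24 h under atorvastatin alone (0.64), and Plxna1 and Plxnd1 at no time. Itgb1, the integrin chain bound by Sema7a, fell at 24 h by 0.83 and 0.91 and was not called later. Robo1, a receptor of Slit2, was not called in any group, with means from -0.38 to 0.89. Of the Eph side, Ephb3 rose at 2 weeks (0.65 and 0.84), Epha4 fell at 2 weeks (-0.80 and -0.89) and Efna1, a ligand of Epha2, was not called. Efnb1 was called at 2 weeks in vehicle (0.53). Robo2, Plxnc1 and Ephb2 did not pass the filter on dim genes.

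Several of the listed genes that rose are also expressed by other cells. Cd72, a B cell surface protein that binds semaphorin 4D, rose at 2 weeks by 5.14 and 4.64, and the effectors Dpysl3, Vav3 and Rnd3 rose at 48 h (2.94, 1.80 and 1.52 in vehicle) and 2 weeks (1.82, 2.79 and 2.30). In vehicle 8 of 12 macrophage markers and 1 of 6 smooth muscle markers were higher at 48 h, and 11 of 12 and 6 of 6 at 2 weeks, and their part in these values was not tested.

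The 9 genes did not form 1 block across mice. After Efnb2 with Epha2, the pairs whose differences correlated most over the 39 mice were Sema7a with Epha2 (0.63), Sema7a with Efnb2 (-0.57), Robo4 with Unc5b (0.56), Unc5b with Sema7a (0.54) and Sema3f with Ephb4 (0.50). With group means removed these were 0.50, -0.47, 0.26, 0.30 and 0.53. The genes most like each in all the tested genes were different. Efnb2 was nearest to Hey2 (0.92), Nuak1 and Prr15 (both 0.90), and Epha2 to Slc25a25 (0.88), Ch25h and Pde12 (both 0.87). Robo4 was nearest to Mgp and Eln (both 0.81) and Mylk (0.79), Unc5b to Kif26b, 2310022B05Rik and Ppic (0.80 to 0.81), and Sema7a to Ube2f, Cdr2 and Tpm4 (0.81 to 0.82). Sema3f was nearest to Sdhc, Rpl34-ps1 and Dctn3 (all 0.75), Ephb4 to Arfgap2, C2cd2l and Arhgef10 (0.70 to 0.73), Sema3g to Nprl2, Chst15 and Neu3 (0.56 to 0.64), and Slit2 to Cep85, Copg2 and Clca3a2 (0.52 to 0.55). These are Pearson correlations of the LCA minus RCA differences over 39 mice that share times and treatments.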

How the data were processed

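Values were the authors' deposited log2 expression values, made with RMA per the submitters' processing notes. RMA gives all arrays a common distribution and compresses low signals. The sources used here do not name its version or a chip definition. Of 45118 probe sets, the platform annotation gave 28898 a single symbol, which alone were named, 551 more than 1 and 15588 none. A gene was tested when its probe set lay above the array median on at least 4 arrays, which left 11344 genes. The LCA minus RCA difference of each mouse was fitted with limma 3.58.1 (R 4.3.3) over 8 groups of treatment and time sharing 1 variance estimate, and LCA and RCA levels likewise. Adjustment was by Benjamini-Hochberg across the tested genes. The number in each title pairs the LCA and RCA of a mouse. Each sample of a group is another mouse. The number of arrays limits the precision. The fits were tested on simulated data. Alternatives changed the filter, scaling, probe set rule, variance model, array weights, blocks, covariate or mice. The 9 measured genes were named in every comparison. Among other guidance genes the rule named up to 6 called genes of largest change per comparison and the binding partners, not all of which are printed. It also named the 3 genes of highest correlation with each. Family counts singled out at 2 weeks and the arterial and venous genes of the closing section were chosen after their values were seen. The genes, the lists and the motifs were chosen with earlier results of these data known. Gene coordinates and promoters are from RefSeq, GRCm38.p6.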

Additional observations from a re-analysis of the deposited data

Results flagged for a closer look

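Of 216 sets of values (9 genes, 3 measures, 8 groups of mice), 12 held 1 mouse far from the rest of its group, and about 1 in 20 would by chance. At 12 h they were Robo4 in the vehicle LCA of mouse 4 (5.61, others 4.49 to 4.79), Unc5b in the vehicle LCA of mouse 5 (6.07, others 5.06 to 5.27), and the Unc5b difference in vehicle mouse 4 (0.23, others -0.26 to -0.14) and in atorvastatin mouse 9 (0.67, others -0.81 to -0.47). At 24 h they were Robo4 in the atorvastatin RCA of mouse 10 (3.53, others 4.36 to 4.64) and the Sema3g difference in vehicle mouse 3 (-1.76, others -0.62 to -0.18). At 48 h it was Sema7a in the atorvastatin RCA of mouse 9 (5.67, others 6.44 to 6.57). At 2 weeks vehicle mouse 2 stood apart for Unc5b in the LCA (4.585, others 7.54 to 8.71) and in the difference (-1.56, others 1.16 to 2.17). Also at 2 weeks were the Sema3g difference in atorvastatin mouse 8 (-2.04, others -1.56 to -1.37), the Efnb2 difference in atorvastatin mouse 7 (-0.59, others -0.08 to 0.12) and the Epha2 difference in vehicle mouse 1 (-0.46, others -0.22 to -0.13).

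The difference between arteries itself differed between times for 5 genes, by a limma test of the step. From 24 h to 48 h the steps were 1.26 for Sema3f, -0.65 for Efnb2 and 1.12 for Epha2 in vehicle, and 0.85 for Sema3f, 1.37 for Sema7a, -0.90 for Efnb2 and 1.04 for Epha2 under atorvastatin. From 48 h to 2 weeks they were 1.38 in vehicle and 1.98 under atorvastatin, both for Robo4.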

How the results depend on the processing

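Values of the 9 genes were compared where they were called in the main fit or under the alternative. Values called in neither, and F tests, were left out. Among the values compared, no alternative reversed a direction. Of 427 such values under other settings, 369 were called in both, 36 lost and 22 gained a call, and of 236 with 1 mouse left out, 182, 42 and 12. The cause of each change was not tested. Numbers of the 9 genes called changed as follows. The 1 call under atorvastatin at 12 h became 0 without the filter, with an intensity trend and robust prior, with the Gapdh ratio as a covariate, with the title code as a block, in a fit to that group alone, and with no replicate block (an unpaired fit; the LCA and RCA of a mouse are paired by its number, and every other count of calls by comparison stayed within 1.5 times). The Gapdh covariate also gave 1 (from 0) in vehicle at 12 h, 1 (from 3) for vehicle 48 h against 24 h, and 0 (from 6) for the vehicle RCA over time. Array weights gave 7 (from 3) for the vehicle LCA over time, 5 (from 3) in vehicle at 24 h, 1 (from 0) for 24 h against 12 h in vehicle, and 2 and 4 (from 1 each) for 2 weeks against 48 h under atorvastatin and vehicle. The fit to each group alone gave 0 (from 6) under atorvastatin at 48 h, 2 (from 4) in vehicle at 48 h and 3 (from 5) in vehicle at 2 weeks. The title code gave 3 (from 6) for the vehicle difference over time, 3 (from 5) in vehicle at 2 weeks, 0 (from 1) for 2 weeks against 48 h and 1 (from 0) for 24 h against 12 h in vehicle. The mean of all probe sets gave 1 (from 0) in vehicle at 12 h, and it, the intensity trend and a second quantile normalization gave 2 (from 1) for 2 weeks against 48 h under atorvastatin. The stricter filter, which drops Robo4, gave 0 (from 1) for that step in both treatments. With 1 mouse left out, counts ranged 0 to 1 under atorvastatin at 12 h, 2 to 4 at 24 h and 3 to 6 at 48 h, 3 to 5 in vehicle at 2 weeks, 2 to 4 for atorvastatin 48 h against 24 h, 1 to 3 and 0 to 3 for 2 weeks against 48 h under atorvastatin and vehicle, 0 to 1 for 24 h against 12 h in vehicle, 3 to 5 for the vehicle LCA over time and 1 to 2 for the atorvastatin RCA over time. Low signal limits Slit2, Robo4 and Epha2.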

Other observations

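Genes that mark arterial and venous endothelium did not move as a block with Efnb2 and Ephb4. Of 12 tested, 2 were higher and 5 lower at 48 h in vehicle, and 2 and 6 under atorvastatin, against 20.8% higher and 15.4% lower of all genes in vehicle and 16.6% and 15.2% under atorvastatin. At 24 h and at 2 weeks, 3 were higher and 4 lower in both treatments. At 24 h 7.19% of all genes were higher and 7.09% lower in vehicle, and 7.29% and 5.8% under atorvastatin. At 2 weeks the shares were 15.5% and 12.3% in vehicle, and 14.5% and 15.4% under atorvastatin. Gja4, an arterial connexin, rose in all 8 groups (from 0.59 to 1.21), whereas the arterial connexin Gja5 fell at 24 h (-1.96 and -2.0) and 2 weeks (-1.38 and -1.13) in both treatments and at 48 h under atorvastatin (-2.25). The Notch ligands also parted at 48 h, where Dll4 rose (1.05 in vehicle and 0.90 under atorvastatin) and Jag1 fell (-1.09 and -1.49). Hey2, a Notch target and the gene most like Efnb2 over mice, fell at 48 h (-0.74 and -1.23). Nr2f2, a venous transcription factor, rose at 2 weeks (1.26 and 1.56). Acvrl1, an endothelial receptor of bone morphogenetic proteins, fell at 24 h (-0.97 and -0.97) and 2 weeks (-0.95 and -1.31).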
